A study of Homo sapiens with 8 samples.

Results

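The 30 genes described here make cholesterol from acetyl-CoA, feed the neighbouring synthesis of fatty acids, or control both through the SREBP transcription factors. They were chosen by name, and each was read from the arrays through the RefSeq accession of its probes, with the brightest probe standing for a gene that had several. All 30 were found among the 20503 genes that the probes named, and all 30 were well above background on both arrays of every group. They fall into 8 genes of the mevalonate steps, 11 of the sterol steps, 6 regulators and 5 of fatty acid synthesis.

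RNA came from established lines of epithelial ovarian cancer, MDAH-2774 (MDAH) and SKOV3. The study silenced the splicing factor SFPQ, which it examined for its part in the response to platinum, with lentiviral pLKO shRNAs, and it measured RNA of each sample on 1 single-colour Agilent array. Each line had 2 control arrays (labelled sh_cnt) and 2 silenced arrays, of which 1 carried sh-SFPQ#2 and 1 carried sh-SFPQ#3. The labels give the control shRNA to both controls of a line, whereas the supplementary methods name one of them parental, so that "control" here means only cells not silenced for SFPQ. The labels call the measured expression constitutive and name no drug. The silenced arrays of a line came from cells given different shRNAs, with 1 array for each shRNA. Nothing in the labels says that the controls of a line came from separate cultures. The p-values therefore measure the spread between these samples, which may be technical for the controls. Except in fits with a term for the shRNA, the spread within the silenced groups also holds any difference between the shRNAs.

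Cholesterol and isoprenoids share the mevalonate steps, after which the sterol steps lead from squalene through lanosterol to cholesterol. The SREBP proteins, encoded by SREBF1 and SREBF2, are made as membrane proteins that SCAP escorts from the endoplasmic reticulum to the Golgi when sterols are scarce. There they are cleaved, and the released part enters the nucleus and binds sterol regulatory elements (SREs) near genes of sterol and fatty acid synthesis, often beside sites of the CCAAT-binding factor NF-Y. INSIG1 and INSIG2 hold SCAP back when sterols are plentiful, and INSIG1 is itself an SREBP target.

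Upstream stretches are shown for 4 members that differed between the controls of the lines, as examples of the elements searched for. Each is 180 bases that end just before the gene's start, from RefSeq (GRCh38.p14), 5′ to 3′ on the gene's strand, with the letters searched for in capitals. ATTGG is the CCAAT box read on the opposite strand.
SREBF2 (chr22:41832925-41833104, + strand): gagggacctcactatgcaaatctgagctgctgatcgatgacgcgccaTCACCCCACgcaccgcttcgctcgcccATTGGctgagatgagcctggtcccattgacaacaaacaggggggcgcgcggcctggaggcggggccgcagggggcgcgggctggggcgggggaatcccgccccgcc
INSIG1 (chr7:155297698-155297877, + strand): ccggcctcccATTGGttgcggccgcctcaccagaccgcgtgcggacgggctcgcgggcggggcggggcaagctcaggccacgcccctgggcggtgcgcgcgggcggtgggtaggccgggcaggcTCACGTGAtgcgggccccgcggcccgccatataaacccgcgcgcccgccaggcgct
EBP (chrX:48521628-48521807, + strand): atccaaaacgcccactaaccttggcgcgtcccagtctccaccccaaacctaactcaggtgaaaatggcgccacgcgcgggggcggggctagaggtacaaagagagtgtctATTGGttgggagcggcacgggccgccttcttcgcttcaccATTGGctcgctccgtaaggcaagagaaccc
TM7SF2 (chr11:65111692-65111871, + strand): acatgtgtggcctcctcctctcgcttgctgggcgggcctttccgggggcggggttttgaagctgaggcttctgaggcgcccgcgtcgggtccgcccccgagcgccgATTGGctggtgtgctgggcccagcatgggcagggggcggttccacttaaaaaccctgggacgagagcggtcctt

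The SREBF2 stretch held the SRE core TCACNCCAC, which began 133 bases before the start, followed by a CCAAT box on the opposite strand. No other member window held this core: it was found, on either strand, in 1 of the 26 members with a promoter window of 300 bases in the table (250 before and 50 after the start), against 1.39% of all genes there. The letters of the core are strict, and a window without them says nothing about SREBP binding. CCAAT on either strand was found in 21 of the 26 members and in 39.7% of all genes. INSIG1 held the E-box TCACGTGA, 56 bases before its start, the only member to do so, against 1.18% of all genes; this motif was added after the windows were seen. The 26 members had 38 windows between them, since some have several starts. In the stretches shown, EBP held 2 and TM7SF2 held 1 CCAAT box, all on the opposite strand.

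SFPQ itself was lower on the silenced arrays of both lines. Its log2 level, relative to the array's 75th percentile as are all levels here, was 3.64 and 3.91 in the MDAH controls and 2.45 (sh-SFPQ#2) and 2.10 (sh-SFPQ#3) on the silenced arrays. Its levels on the SKOV3 arrays were 4.84 and 4.66 without silencing, 3.01 under sh-SFPQ#2 and 2.48 under sh-SFPQ#3. The fit of all 4 groups with limma gave a log2 change of -1.50 (SE 0.23, adjusted p = 0.0328) in MDAH and -2.01 (SE 0.23, adjusted p = 0.0299) in SKOV3 cells. All arrays came from 1 slide and 1 scan. Each line filled a row of that slide with its controls first, and place on the slide therefore cannot be told apart from group. The 75th percentile of the signal was between 387 and 496 on 7 arrays and 244 on the MDAH array with sh-SFPQ#3. Of 8 epithelial markers, 6 (EPCAM, KRT8, KRT18, KRT19, KRT7 and PAX8) were well above background on all 8 arrays, while the fibroblast markers COL3A1, LUM and PDGFRB and the T cell marker CD3E were so on none. The markers COL1A1 (fibroblast), CDH5 (endothelial), PTPRC and CD14 (leukocyte) were above background on all 8. The summed level of the 5 fibroblast markers is given as a multiple of each array's 75th percentile. It was 0.583 to 0.702 in MDAH controls and 1.20 to 1.59 in silenced MDAH cells. In SKOV3 cells it was 0.263 to 0.331 in controls and 0.695 to 0.816 in silenced cells. Of these markers only COL1A1 was well above background in MDAH cells, and only COL1A1 and DCN in SKOV3 cells. The sum thus reflects these genes, and its part in the results below was not tested. In RNA of whole cultures, fewer cells of a type and less RNA per cell cannot be told apart.

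**Figure D1:**
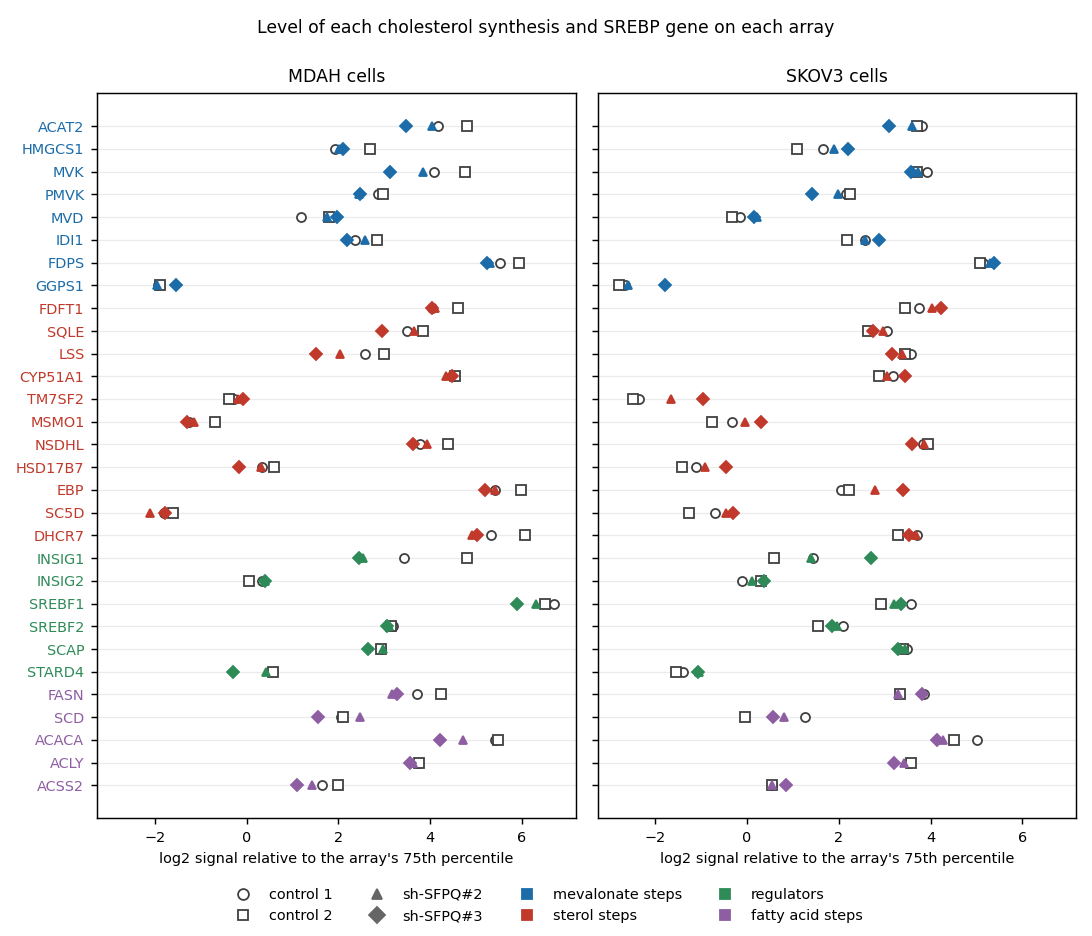
Level of each of the 30 members on each array, as log2 signal relative to the array's 75th percentile (x axis), with genes on the y axis coloured by role. Open symbols are the 2 controls, triangles sh-SFPQ#2 and diamonds sh-SFPQ#3; EBP, SREBF1 and INSIG1 lie further left in SKOV3 than in MDAH controls, and the controls of MDAH differ most for INSIG1 (3.43 and 4.80).

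The clearest differences among these genes lay between the lines and not between silenced and control cells. In the SKOV3 controls, 19 of the 30 members were lower and 3 were higher than in the MDAH controls (limma, adjusted p under 0.05), and the median log2 difference of the members was -0.78. Over all 15552 genes tested, 57.5% passed in either direction, 26.8% lower and 30.7% higher in SKOV3, with a median of 0.05. The members thus stood at 73.3% past the threshold and 63.3% lower. Of the mevalonate genes 5 of 8 were lower and none higher, of the sterol genes 7 of 11 were lower and 2 higher, of the regulators 4 of 6 were lower and 1 higher, and of the fatty acid genes 3 of 5 were lower and none higher.

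EBP, the isomerase that moves a double bond within the sterol ring, differed most. Its log2 level was 5.41 and 5.98 in the MDAH controls against 2.04 and 2.23 in the SKOV3 controls, with a gap between the lines several times the spread within either. EBP was 11.8-fold lower in SKOV3 (log2 difference -3.56, SE 0.27, limma adjusted p = 7.74e-05). The sterol reductase DHCR7, which makes the final product in one branch, was 5.33 and 6.07 in MDAH and 3.71 and 3.29 in SKOV3 controls (4.61-fold lower, adjusted p = 0.000607 with limma). TM7SF2, another sterol reductase, was -0.27 and -0.37 in MDAH and -2.36 and -2.48 in SKOV3 controls (4.29-fold lower, adjusted p = 0.000398 with limma). For each of these genes the gap between the lines exceeded the spread of the controls within a line. HSD17B7, which takes part in removing the methyl groups of the sterol ring, was 0.33 and 0.60 in MDAH and -1.13 and -1.42 in SKOV3 controls (3.33-fold lower, limma adjusted p = 0.00115). CYP51A1, the lanosterol demethylase, was 4.49 and 4.54 in MDAH and 3.17 and 2.86 in SKOV3 controls (2.82-fold lower, limma adjusted p = 0.00069). All 3 probes of HSD17B7 gave a lower level, from -2.09 to -1.61 on the log2 scale, but the gene has near-identical copies that they may also bind. Squalene epoxidase SQLE was 3.49 and 3.84 against 3.05 and 2.64 (1.76-fold lower, limma adjusted p = 0.0429). Squalene synthase FDFT1 was 4.05 and 4.62 against 3.76 and 3.43 (1.67-fold lower, limma adjusted p = 0.0299). The controls of the lines did not overlap for these genes, although the gap was smaller than for EBP.

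Among the regulators, SREBF1 was 6.70 and 6.52 in the MDAH controls and 3.57 and 2.91 in the SKOV3 controls, so that the lines did not overlap. The log2 difference was -3.37 (SE 0.26, limma adjusted p = 7.71e-05), a 10.3-fold lower level in SKOV3. This value rests on the brighter of 2 probes: on the dimmer one, also well above background on all arrays, the controls were 0.10 and -0.17 in MDAH and -0.17 and -0.21 in SKOV3, a difference of -0.15 (SE 0.16). INSIG1, which retains SCAP, was 3.43 and 4.80 in MDAH and 1.44 and 0.59 in SKOV3 controls (log2 difference -3.10, SE 0.58, limma adjusted p = 0.00377). Its controls spread more widely in MDAH than those of any other member, yet did not overlap between lines. SREBF2 was 3.19 and 3.14 in MDAH and 2.08 and 1.56 in SKOV3 controls (2.54-fold lower, limma adjusted p = 0.00124), and STARD4, a carrier of cholesterol between membranes, was 0.54 and 0.57 in MDAH and -1.40 and -1.54 in SKOV3 controls (4.09-fold lower, limma adjusted p = 0.000507). SCAP was the regulator that was higher in SKOV3, at 3.49 and 3.39 against 2.93 and 2.94 (1.42-fold, limma adjusted p = 0.0345). INSIG2 was 0.34 and 0.05 in MDAH and -0.11 and 0.31 in SKOV3 controls and did not differ past the threshold (log2 difference -0.09, interval from -0.58 to 0.39), although on its dimmer probe the difference was -0.77 (SE 0.19, limma adjusted p = 0.0123).

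In the mevalonate steps, MVD, which decarboxylates mevalonate pyrophosphate, was 1.18 and 1.80 in MDAH and -0.15 and -0.32 in SKOV3 controls (3.31-fold lower, limma adjusted p = 0.000778). HMG-CoA synthase HMGCS1 was 1.93 and 2.69 in MDAH and 1.66 and 1.1 in SKOV3 controls (1.90-fold lower, limma adjusted p = 0.0355). GGPS1, which makes geranylgeranyl pyrophosphate, was -1.92 and -1.90 against -2.67 and -2.78 (1.77-fold lower, limma adjusted p = 0.0416). These genes and the next were lower in SKOV3 by smaller factors that passed the test, with no overlap between the lines. Phosphomevalonate kinase PMVK was 2.86 and 2.96 against 2.17 and 2.25 (1.63-fold lower, limma adjusted p = 0.0253), and farnesyl pyrophosphate synthase FDPS was 5.52 and 5.94 against 5.14 and 5.07 (1.54-fold lower, limma adjusted p = 0.021). The thiolase ACAT2 (log2 difference -0.73), mevalonate kinase MVK (-0.61) and the isomerase IDI1 (-0.24) did not pass. Of the fatty acid genes, the desaturase SCD was 2.05 and 2.11 in MDAH and 1.27 and -0.05 in SKOV3 controls (2.77-fold lower, limma adjusted p = 0.0303), with a wide spread in SKOV3. The acetyl-CoA synthetase ACSS2 was 1.64 and 2.0 against 0.54 and 0.54 (2.42-fold lower, limma adjusted p = 0.00174), with both SKOV3 controls alike. The acetyl-CoA carboxylase ACACA was 5.42 and 5.48 against 5.02 and 4.5 (1.61-fold lower, limma adjusted p = 0.0438) on the brighter of its probes, while on the dimmer the log2 difference was -0.04 (SE 0.34). Fatty acid synthase FASN (-0.38) and the citrate lyase ACLY (-0.19) did not pass.

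Lanosterol synthase LSS and the desaturase SC5D were the sterol genes that were higher in SKOV3. LSS was 2.57 and 3.0 in MDAH and 3.58 and 3.44 in SKOV3 controls (1.65-fold higher, limma adjusted p = 0.0347). SC5D was -1.80 and -1.60 in MDAH and -0.71 and -1.26 in SKOV3 controls (1.64-fold higher, limma adjusted p = 0.0341). The dimmer probe of LSS went the other way, at -0.55 and -0.11 in MDAH and -1.35 and -1.65 in SKOV3 controls (log2 difference -1.17, SE 0.35, limma adjusted p = 0.025), so that the direction for LSS depends on the probe. MSMO1 (0.42) and NSDHL (-0.19), which act with HSD17B7 on the methyl groups, did not pass. The number of members past the threshold was 14 without MDAH control 1 (46.7%, against 43.5% of all genes), 12 without MDAH control 2 (40%, against 46.1%), 15 without SKOV3 control 1 (50%, against 45.4%) and 12 without SKOV3 control 2 (40%, against 45.7%). With the median of each array subtracted it was 14 (46.7%, against 57.3% of all genes), and 11 of these were lower in SKOV3 (36.7%, against 22.7%). Under these alternatives the share of members past the threshold in either direction was thus near or below that of all genes. That share does not take account of direction. The members' median difference was -1.01 without MDAH control 1 and -0.64 without MDAH control 2, against 0.05 and 0.07 over all genes. It was -0.92 without SKOV3 control 1 and -0.66 without SKOV3 control 2, against 0.07 and 0.06. The 11 members ACSS2, CYP51A1, DHCR7, EBP, HSD17B7, INSIG1, MVD, SREBF1, SREBF2, STARD4 and TM7SF2 passed under all 16 alternatives of this comparison.

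**Figure D2:**
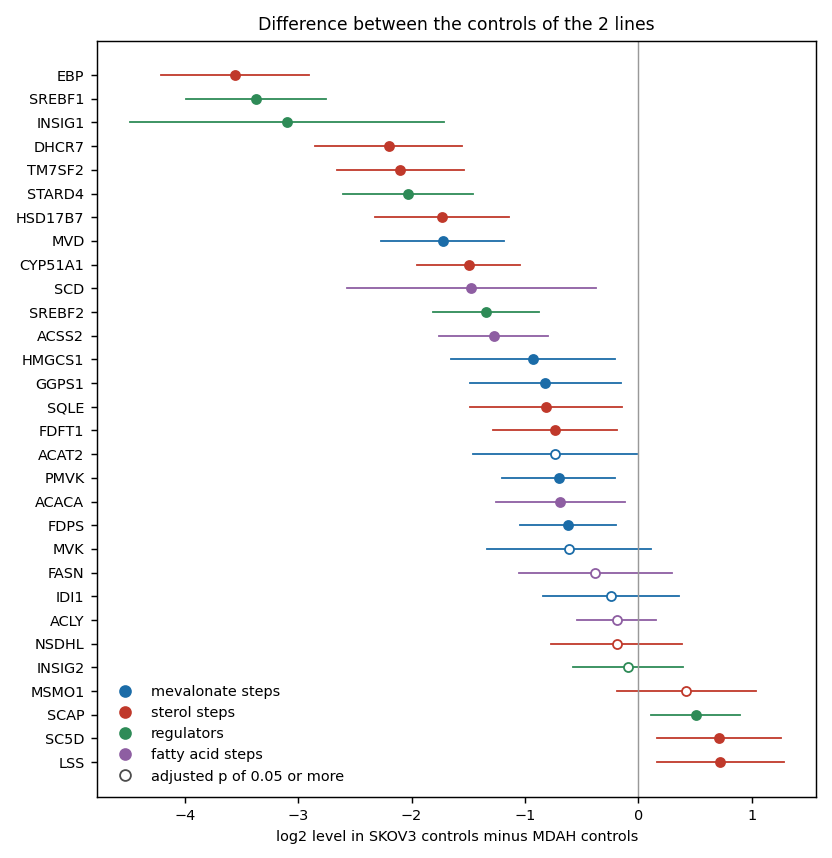
Difference in log2 level between SKOV3 and MDAH controls for each member (x axis), with the 95% confidence interval from the fit as lines and filled points for the 22 members with an adjusted p under 0.05. Of the filled points 19 lie to the left of 0, from EBP at -3.56 to FDPS at -0.62, and 3 to the right (SCAP, SC5D and LSS).

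The arrays were made to find which genes differ once SFPQ is silenced, and each line was therefore set against its own controls. In MDAH cells the members tended to lower levels on the silenced arrays, but no member passed the test: 26 of 30 had a lower and 4 a higher mean, with a median log2 change of -0.33 against 0.10 over all genes tested. Of all genes, 2.03% passed. At an unadjusted p under 0.05 there were 9 members (30%) against 23.1% of all genes, a share not far from the background. For 17 members both silenced arrays lay below both controls (56.7%, against 21.4% of all genes), and for TM7SF2 and INSIG2 (6.67%, against 35.6% of all genes) both lay above. With the median of each array subtracted there were 8 members below (26.7%, against 14.3% of all genes), and with quantile normalization 20 (66.7%, against 23.7%).

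INSIG1 had the lowest value in MDAH, at 3.43 and 4.80 in the controls against 2.54 (sh-SFPQ#2) and 2.44 (sh-SFPQ#3). Both silenced arrays lay below both controls, which stood 1.37 apart on the log2 scale. Its log2 change of -1.62 (SE 0.58) had an adjusted p of 0.17 with limma. LSS was 2.57 and 3.0 in the controls and 2.03 and 1.52 on the silenced arrays, and its silenced arrays were again below both controls (log2 change -1.02, SE 0.23, limma adjusted p = 0.0851). Its dimmer probe had a value in the same direction (-1.58, SE 0.35, limma adjusted p = 0.0734). On its brighter probe, ACACA was 5.42 and 5.48 in the controls against 4.71 (sh-SFPQ#2) and 4.22 (sh-SFPQ#3) (log2 change -0.99, SE 0.24, limma adjusted p = 0.0906). The dimmer probe of ACACA went the other way (0.71, SE 0.34, limma adjusted p = 0.259). MVK was 4.10 and 4.75 in the controls and 3.85 and 3.14 on the silenced arrays (-0.93, SE 0.30, limma adjusted p = 0.146). FASN (-0.75), ACAT2 (-0.74) and DHCR7 (-0.72) had values of like size, and their silenced arrays also lay below both controls.

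The 4 members with a higher mean in silenced MDAH cells were MVD, INSIG2, TM7SF2 and GGPS1. MVD was 1.18 and 1.80 in the controls and 1.76 and 1.97 on the silenced arrays, so that 1 silenced array lay between the controls (log2 change 0.37, interval from -0.17 to 0.91). INSIG2 was 0.34 and 0.05 in the controls and 0.40 and 0.41 on the silenced arrays (0.21). TM7SF2 was -0.27 and -0.37 in the controls and -0.18 and -0.07 on the silenced arrays (0.20). The SREBP genes themselves did not pass in MDAH. SREBF1 was 6.70 and 6.52 in the controls and 6.32 and 5.90 on the silenced arrays (-0.50, SE 0.26, limma adjusted p = 0.29), and on its dimmer probe the change was 0.23 (SE 0.16). SREBF2 was 3.19 and 3.14 against 3.11 and 3.07 (log2 change -0.07, interval from -0.54 to 0.39) and SCAP 2.93 and 2.94 against 2.97 and 2.65 (-0.13, interval from -0.52 to 0.26). Without the MDAH array with sh-SFPQ#2, ACACA, LSS and STARD4 passed in MDAH (10%, against 7.02% of all genes), and with normexp background correction ACACA and LSS did (6.67%, against 4.0%).

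In SKOV3 cells the members tended the other way. The mean was higher on the silenced arrays for 21 of 30 and lower for 9, with a median log2 change of 0.15 against -0.04 over all genes tested, and again no member passed, against 0.997% of all genes. At an unadjusted p under 0.05 there were 5 members (16.7%) against 19.5% of all genes. Both silenced arrays lay above both controls for 13 members (43.3%, against 25.9% of all genes) and below for 5 (16.7%, against 32.1%). The sterol genes had the highest median of the 4 groups, at 0.54, with 9 of 11 higher.

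TM7SF2 was -2.36 and -2.48 in the SKOV3 controls against -1.65 (sh-SFPQ#2) and -0.96 (sh-SFPQ#3). Its silenced arrays lay well above its controls, which were close together, and the log2 change was 1.11 (SE 0.24, limma adjusted p = 0.0895). INSIG1 was 1.44 and 0.59 in the controls against 1.39 (sh-SFPQ#2) and 2.69 (sh-SFPQ#3), so that 1 silenced array lay between the controls (1.03, SE 0.58, limma adjusted p = 0.373). EBP was 2.04 and 2.23 in the controls and 2.78 and 3.40 on the silenced arrays, with no overlap (0.95, SE 0.27, limma adjusted p = 0.147). HMGCS1 (0.68), MSMO1 (0.67), SC5D (0.60), HSD17B7 (0.58), GGPS1 (0.54) and FDFT1 (0.54) followed, each with both silenced arrays above both controls. Without the SKOV3 array with sh-SFPQ#2, TM7SF2 passed (3.33% of members, against 3.83% of all genes).

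The lowest values in SKOV3 were those of ACACA, PMVK and ACAT2. On its brighter probe, ACACA was 5.02 and 4.5 in the controls and 4.28 and 4.14 on the silenced arrays (log2 change -0.55, SE 0.24, limma adjusted p = 0.267). The dimmer probe of ACACA went the other way (0.95, SE 0.34, limma adjusted p = 0.195). PMVK was 2.17 and 2.25 in the controls against 1.99 (sh-SFPQ#2) and 1.40 (sh-SFPQ#3) (-0.51, SE 0.21, limma adjusted p = 0.247). ACAT2 was 3.81 and 3.70 in the controls and 3.59 and 3.09 on the silenced arrays (-0.42, SE 0.30, limma adjusted p = 0.474). For these genes, with ACACA on its brighter probe, both silenced arrays lay below both controls. Both SREBP genes, SCAP and INSIG2 were close to their controls. SREBF1 was 3.57 and 2.91 in the controls and 3.20 and 3.36 on the silenced arrays (0.04, interval from -0.57 to 0.66). SREBF2 was 2.08 and 1.56 in the controls and 1.95 and 1.86 on the silenced arrays (0.09), with the silenced arrays between the controls. SCAP was 3.44 and 3.29 on the silenced arrays (log2 change -0.07) and INSIG2 0.11 and 0.37 (0.14), and for both genes 1 silenced array lay between the controls. STARD4, also counted with the regulators, was -1.40 and -1.54 in the controls and -1.04 and -1.07 on the silenced arrays, which lay above both controls (0.42).

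**Figure D3:**
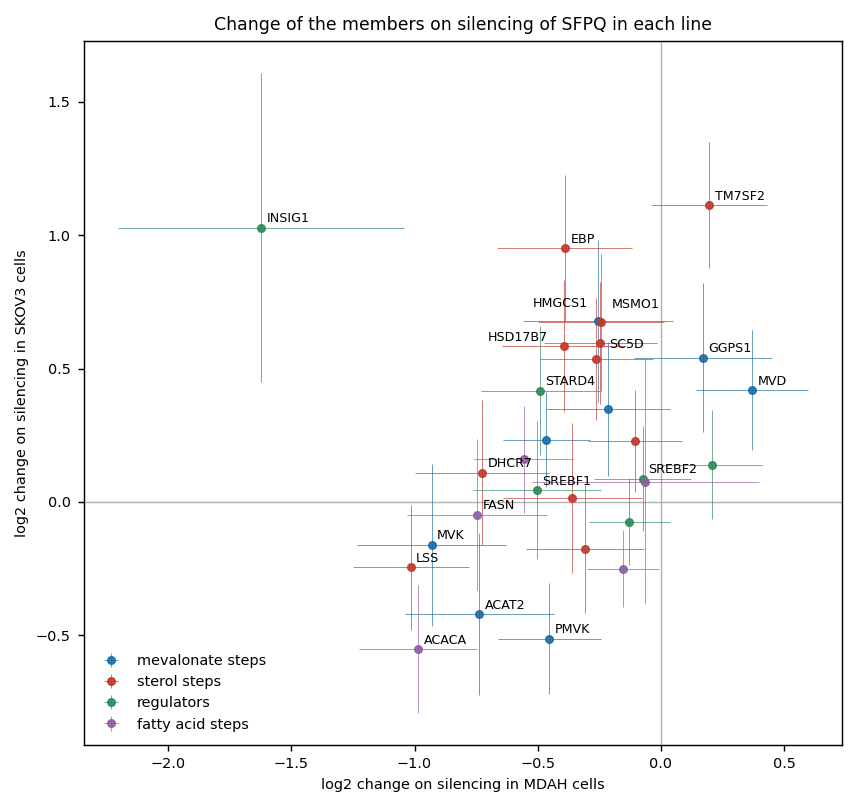
Log2 change on silencing of SFPQ in MDAH cells (x axis) and in SKOV3 cells (y axis) for each of the 30 members, coloured by role, with the standard error of the fit as lines. No member passed in either line. INSIG1 stands at -1.62 in MDAH and 1.03 in SKOV3, and ACACA (on its brighter probe), LSS, ACAT2 and PMVK are among the members below 0 in both.

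The direction of the members between the lines was then compared, on the same 8 arrays. The change in MDAH was below that in SKOV3 for 27 of 30 members, with a median difference of -0.63 against 0.12 over all genes tested. No member passed the test of the difference itself with limma, against 0.0965% of all genes, and 10 members (33.3%, against 14.9% of all genes) had an unadjusted p under 0.05. INSIG1 differed most between the lines (-2.65, SE 0.82, limma adjusted p = 0.265), followed by EBP (-1.34, SE 0.39, limma adjusted p = 0.249) and HSD17B7 (-0.98, SE 0.35, limma adjusted p = 0.298). ACLY (0.10), INSIG2 (0.07) and PMVK (0.06) had the highest differences, all close to 0 and of a sign that changed with the normalization. ACLY was 3.73 and 3.76 in MDAH controls against 3.62 (sh-SFPQ#2) and 3.56 (sh-SFPQ#3), and 3.52 and 3.58 in SKOV3 controls against 3.41 and 3.19. Its silenced arrays lay below the controls in both lines. HSD17B7 was 0.31 and -0.17 on the silenced MDAH arrays and -0.92 and -0.46 on those of SKOV3, below and above its controls, respectively. EBP was 5.411 and 5.20 on the silenced MDAH arrays, the former barely below its lower control at 5.413. ACSS2 was 0.550 and 0.858 on the silenced SKOV3 arrays, the former barely above its controls at 0.545 and 0.543. For FDPS, HSD17B7, EBP, STARD4 and ACSS2 both silenced arrays lay below both controls in MDAH and above both in SKOV3 (16.7% of members, against 3.37% of all genes), and for no member was it the reverse, against 8.38% of all genes. The count of 5 depended on the scaling: it was 0 with the median of each array subtracted (against 1.83% of all genes) and 6 with quantile normalization (20%, against 4.15%).

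Averaged over both lines, no member passed, against 5.66% of all genes, and the median of -0.07 was near that of all genes (0.04). At an unadjusted p under 0.05 there were 7 members (23.3%, against 26.4% of all genes). The lowest averages were those of ACACA (-0.77, SE 0.17, limma adjusted p = 0.0505), LSS (-0.63, SE 0.17, limma adjusted p = 0.0731), ACAT2 (-0.58) and MVK (-0.55). The highest were those of TM7SF2 (0.65, SE 0.17, limma adjusted p = 0.0682), MVD (0.39), GGPS1 (0.35) and EBP (0.28). These values are those of the brightest probe, and the dimmer probe of ACACA had an average of 0.83 (SE 0.24). In SKOV3, LSS was 3.37 and 3.16 on the silenced arrays, below both controls. MVK was 3.92 and 3.71 in the controls and 3.72 and 3.58 on the silenced arrays, and MVD was -0.15 and -0.32 against 0.21 and 0.15 in that line. PMVK was 2.45 and 2.47 on the silenced MDAH arrays, below both controls. The silenced arrays lay below the controls in both lines for ACAT2, PMVK, LSS, ACACA and ACLY (16.7%, against 10.3% of all genes), and above them in both for TM7SF2 (3.33%, against 12.4%). With normexp, ACACA, LSS, PMVK and TM7SF2 passed in the average (13.3%, against 9.22% of all genes). ACACA and TM7SF2 passed with terms for the shRNA and for the number of the control (6.67%, against 11.4%) and over genes well above background on all 8 arrays (6.67%, against 7.45%). Without the MDAH array with sh-SFPQ#2, ACACA and LSS did (6.67%, against 10.8%), and without the SKOV3 array with sh-SFPQ#2, PMVK and TM7SF2 did (6.67%, against 8.98%).

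The controls of a line differed from each other for the members, and these differences ran opposite in the lines. In MDAH, control 2 was above control 1 for 26 of 30 members, with a median of 0.36 against 0.04 over all genes tested. In SKOV3, control 2 was below control 1 for 25 of 30, with a median of -0.25 against 0.02. In 22 of 30 members both held at once. INSIG1 spanned 1.37 in MDAH and -0.85 in SKOV3, SCD 0.06 and -1.32, HMGCS1 0.77 and -0.56, DHCR7 0.74 and -0.42. The size of the silencing values therefore depended on the control array. In MDAH the median of the members was -0.09 for sh-SFPQ#2 and -0.28 for sh-SFPQ#3 against control 1, and -0.46 and -0.63 against control 2. In SKOV3 it was -0.01 for sh-SFPQ#2 and 0.26 for sh-SFPQ#3 against control 1, and 0.31 and 0.46 against control 2. The differences between the controls of a line were thus of the size of the differences between silenced and control arrays.

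**Figure D4:**
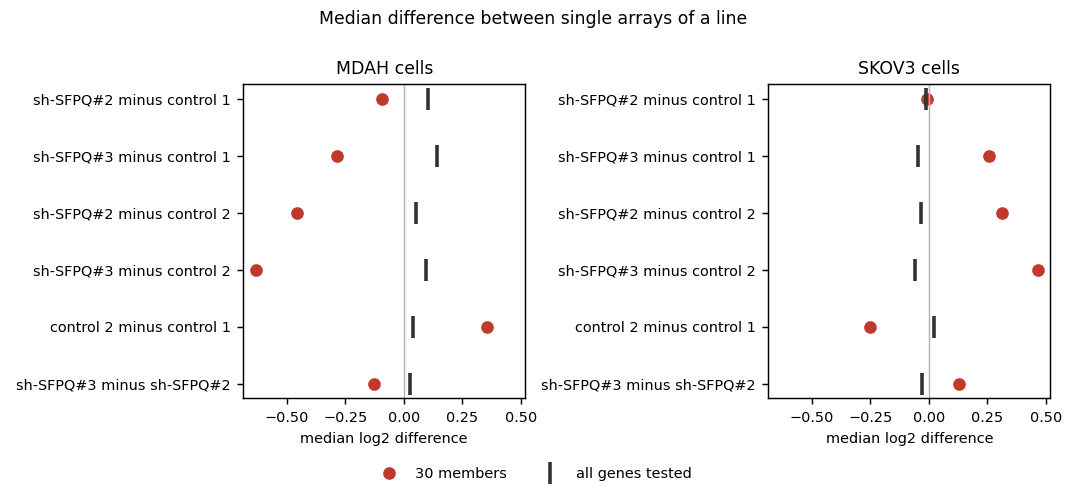
Median log2 difference between pairs of single arrays of a line (x axis) for the 30 members (red points) and for all genes tested (black bars), without a test. In MDAH the members lie to the left of all genes for each silenced array against each control, and control 2 lies 0.36 above control 1; in SKOV3 control 2 lies 0.25 below control 1, and sh-SFPQ#2 against control 1 gives -0.01.

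The silenced arrays of a line carried different shRNAs, and these were compared with the line held fixed. No member passed, against 3.02% of all genes, 1 (3.33%, against 19.8% of all genes) had an unadjusted p under 0.05, and the median of the members was -0.02 against 0.00 over all genes tested. GGPS1 was higher with sh-SFPQ#3 in both lines, at -1.53 against -1.94 in MDAH and -1.79 against -2.59 in SKOV3 (log2 difference 0.61, SE 0.15, limma adjusted p = 0.104). SCD was 2.47 with sh-SFPQ#2 and 1.57 with sh-SFPQ#3 in MDAH and 0.80 and 0.57 in SKOV3 (-0.57), and SQLE was 3.66 and 2.96 in MDAH and 2.97 and 2.75 in SKOV3 (-0.46). With ACAT2 (-0.54) they had the lowest differences, and TM7SF2 (0.40) and INSIG1 (0.60) followed GGPS1. INSIG1 differed by 1.30 in SKOV3 and by -0.09 in MDAH, so that its value came from SKOV3. SFPQ itself differed by -0.44 between the shRNAs (SE 0.16, limma adjusted p = 0.212).

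Of the 30 members, 5 had several probes, and ACACA showed opposite directions. Both of its probes carry the accession NM_198839 and were well above background on all arrays. The brighter is described above; on the dimmer the controls were 0.48 and 0.46 in MDAH, against 0.76 (sh-SFPQ#2) and 1.60 (sh-SFPQ#3). In SKOV3 it was 0.37 and 0.50 in the controls against 1.01 (sh-SFPQ#2) and 1.76 (sh-SFPQ#3). On this probe all silenced arrays were above all controls, and on the brighter one they were below those of their line. The average change was 0.83 (SE 0.24, limma adjusted p = 0.0838) on the dimmer and -0.77 (SE 0.17, limma adjusted p = 0.0463) on the brighter probe when each of 20936 probes was fitted on its own. A direction for the ACACA gene as a whole is therefore not given. The 3 probes of HSD17B7 ranged from -0.47 to -0.39 in MDAH and from 0.17 to 0.58 in SKOV3, and the silencing values of INSIG2 lay between -0.08 and 0.21 over its probes and both lines.

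**Figure D5:**
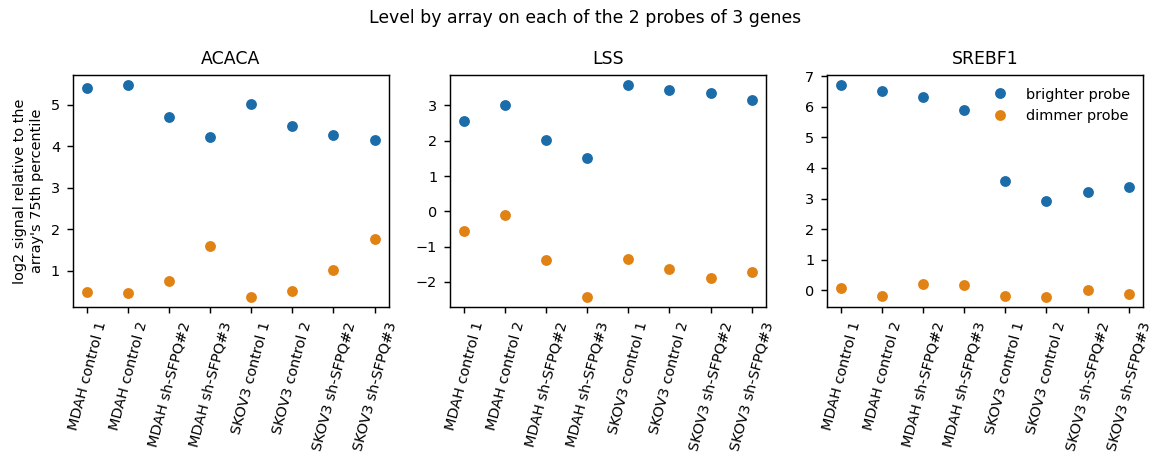
Log2 level relative to the array's 75th percentile (y axis) on each array (x axis) for the brighter and the dimmer probe of ACACA, LSS and SREBF1. On silencing the ACACA probes point in opposite directions and the LSS probes in the same one; between the lines the LSS probes point in opposite directions, and only the brighter SREBF1 probe sets the lines apart.

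Genes that work beside the members were read from a list of 44: processing of SREBPs, fatty acid elongation and activation, liver X receptors and sterol efflux, sterol transport, and the non-sterol branches of the mevalonate pathway. Their median change was 0.01 in MDAH and -0.05 in SKOV3, where that of the members was -0.33 and 0.15. The groups within the list differed. The genes grouped under fatty acid elongation, desaturation and activation also include LPIN1, ME1 and TMEM97, which have other roles. These 12 genes had a median of -0.56 in MDAH, with 9 lower and 3 higher. Their median in SKOV3 was -0.08. The medians of the other groups ranged from -0.23 (liver X receptors and sterol efflux) to 0.29 (non-sterol branches) in MDAH. On silencing, 1 of the 44 passed in MDAH (2.27%, against 2.03% of all genes), none in SKOV3 (against 0.997%) and 2 in the average (4.55%, against 5.66%). At an unadjusted p under 0.05 there were 9 in SKOV3 (20.5%, against 19.5% of all genes). ABCA1, which exports cholesterol and is a target of the liver X receptors, fell in MDAH on its brighter probe. It was 1.45 and 1.29 in the controls and -0.15 and -0.23 on the silenced arrays (log2 change -1.56, SE 0.18, limma adjusted p = 0.015). In SKOV3 it was 1.64 and 2.03 in the controls and 1.04 and 0.86 on the silenced arrays (-0.88, SE 0.18, limma adjusted p = 0.0839). In both lines the silenced arrays lay below the controls, and the average change was -1.22 (SE 0.13, limma adjusted p = 0.00902). These values are those of its brighter probe; the dimmer one, also well above background on all arrays, had -0.39 in MDAH (limma adjusted p = 0.218) and -0.15 in the average. RABGGTA, a subunit of the enzyme that adds geranylgeranyl groups to Rab proteins, rose in the average. It was -1.83 and -1.85 in MDAH and -1.55 and -1.22 in SKOV3 controls, and -1.12, -1.04, -0.70 and -0.53 on the silenced arrays (0.77, SE 0.12, limma adjusted p = 0.0231). The fatty acid elongase ELOVL6 had a low average (-1.14, SE 0.27, limma adjusted p = 0.0603) and SMPDL3A, a target of the liver X receptors, a high one (0.43, SE 0.17, limma adjusted p = 0.174). Without MDAH control 1, no call of ABCA1 or RABGGTA remained (limma adjusted p of 0.176 for ABCA1 in MDAH, 0.0721 for its average and 0.121 for RABGGTA).

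Between the shRNAs 4 of the 44 genes passed (9.09%, against 3.02% of all genes), all lower with sh-SFPQ#3. MBTPS1, the protease that makes the first cut in SREBPs, was 4.09 with sh-SFPQ#2 and 3.22 with sh-SFPQ#3 in MDAH and 4.25 and 3.01 in SKOV3 (log2 difference -1.05, SE 0.15, limma adjusted p = 0.0294). The acyl-CoA synthetases ACSL4 (-0.92) and ACSL1 (-0.80) both had an adjusted p of 0.0367 with limma, and LIPA, the lysosomal lipase that frees cholesterol from its esters, differed by -0.95 (limma adjusted p = 0.0456). Both probes of MBTPS1 gave -1.05 and -1.04. Its level was 3.92 and 3.81 in MDAH and 3.97 and 4.0 in SKOV3 controls, above the sh-SFPQ#3 arrays and below the sh-SFPQ#2 arrays of both lines. Each of the 4 calls was lost in 10 of 16 alternatives: whenever 1 array was left out, with no filter on dim probes and with the replicate block, with a limma adjusted p of up to 0.1 for MBTPS1, 0.163 for ACSL4, 0.152 for ACSL1 and 0.197 for LIPA. Between the controls of the lines 23 of the 44 passed (52.3%, against 57.5% of all genes), 10 higher and 13 lower in SKOV3.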

How the data were processed

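RNA of 4 groups of 2 arrays was measured, as grouped by the sample labels. Per the file headers, the authors deposited the background-subtracted processed signal intensity of each spot from Feature Extraction 11.5.1.1 (the submitters' notes name 10.7.3.1), without normalization between arrays, and a table of log2 values that equals quantile-normalized signals centred per probe; that table was an alternative. Control spots and outlier spots (209 to 310 per array) were removed, replicate spots of each probe were averaged as log2 values, and each array's 75th percentile was subtracted. Between 47.7% and 57.0% of probes were well above background and none was saturated. Probes were named by RefSeq accession (28174 of 30878 matched), the brightest per gene was used, and a gene was tested if both arrays of 1 group or more were well above background. The coordinates printed are those of the upstream stretches in the RefSeq table (GRCh38.p14); none are given for probes. limma 3.58.1 in R 4.3.3 was fitted to all 8 arrays in 4 groups (4 residual degrees of freedom), and for the shRNAs with a term for the shRNA (3), with Benjamini-Hochberg adjustment over all genes tested and a threshold of 0.05. The fits were tested on simulated data. With 2 arrays per group their number limits the precision.

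The comparisons share arrays: both controls of a line enter its silencing value, the average, the difference and the comparison between lines. All 30 members are accounted for. Values per array are given for those past the threshold or highest or lowest in a fit (4 on each side for the average, otherwise 3) and for SREBF1, SREBF2, SCAP, INSIG1 and INSIG2; of the other 44 genes, those past the threshold and the 2 highest and 2 lowest averages are named. The members and lists were chosen with earlier results of these data known. The alternatives were other scalings, background correction, filters, probe choices, the replicate block and leaving out each array; single-array differences, the E-box and the fit of each probe were added after seeing the data.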

Additional observations from a re-analysis of the deposited data

How the results depend on the processing

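The number of members past the threshold on silencing in MDAH was 2 (ACACA and LSS) with normexp (4.0% of all genes), and 0 to 3 when 1 array was left out (0.0579% to 7.02% of all genes). In SKOV3 it was 0 to 1 when 1 array was left out (0.0836% to 3.83%). In the average it was 4 with normexp (9.22%), 2 with genes well above background on all 8 arrays (7.45%) and 2 with the replicate block (11.4%), and 0 to 2 when 1 array was left out (0.206% to 10.8%). Between the controls it was 14 with array medians subtracted (57.3%) and 12 to 22 when 1 array was left out (43.5% to 59.9%). The test of the difference between the lines and that of the shRNAs gave 0 under every alternative run. Same-numbered silenced arrays share their shRNA, and same-numbered controls only a number: between the lines, deviations of the former correlated at 0.36 and those of the latter at 0.08 over all genes, and the replicate block raised the calls of all genes in MDAH from 316 to 862. The median of the members in MDAH was -0.0931 for sh-SFPQ#2 against control 1 and -0.631 for sh-SFPQ#3 against control 2; in SKOV3 it was -0.0095 and 0.464 for the same pairs, and 0.1135 to 0.362 when 1 array was left out. Subtracting array medians moved the median of all genes from 0.10 to 0.21 in MDAH, from 0.12 to 0.26 in the difference, from 0.05 to 0.21 between the controls and from 0.00 to -0.15 between the shRNAs. Relative to all genes, the members' median in MDAH (-0.44) ranged from -0.60 without the sh-SFPQ#2 array to -0.26 without control 2. With array medians subtracted the members apart were 4 higher (45.7% of all genes) and 8 lower (14.3%) in MDAH, 3 higher (14.1%) and 3 lower (7.12%) in both lines, and 0 lower in MDAH and higher in SKOV3 (1.83%); quantile normalization and the authors' table gave 2 higher in both (13.3%). Signs turned for ACACA with the mean of its probes (0.1996 in SKOV3, 0.0302 in the average) and for LSS between the controls (-0.2252). In the difference, ACLY was -0.1054 with quantile normalization, -0.1075 with the authors' table and -0.0876 with normexp, PMVK -0.101, -0.1029 and -0.1085, and INSIG2 -0.0127 with normexp. Leaving out 1 array, ACLY ranged from -0.0119 to 0.2058, INSIG2 from -0.1442 to 0.2807, PMVK from -0.2311 to 0.3533, and INSIG1 between the shRNAs from -0.0926 to 1.2998. CCAAT on the gene's own strand was found in 10 of the 26 members with a window (38.5%, against 23.3% of all genes). On either strand it was found in 21 (80.8%, against 39.7%). The slide could not be a block, since there was 1 slide. Where 1 array was left alone in a group, it was assumed to vary like the others. The causes were not tested.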
